A study of Mus musculus with 3 samples.

Results

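The genes described here are 53 transcription factor genes of embryonic development that lie outside the Hox clusters. They were taken as a named list of PAX, LIM homeobox, IRX, GATA, NKX, TBX, FOX, SOX, basic helix-loop-helix (bHLH), WT1 and PITX genes, with Six2, Six3 and Six6, and all 53 matched a RefSeq record among 21887 protein-coding genes. For each gene, peaks were read in a window made of the gene record plus 5000 bp on each side. The peaks come from MeDIP-seq, methylated DNA immunoprecipitation followed by sequencing, in which an antibody pulls down methylated fragments and regions rich in reads are called as peaks.

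The tissue was epididymal fat, the visceral depot beside the epididymis, from 16-week-old male C57BL/6J mice. There was 1 library for each of 3 diets that began at 6 weeks of age and ran for 10 weeks. The normal diet (ND) gave 10% of its energy as fat and the high-fat diet (HFD) 60%. The third group (FAD) ate the 60% fat diet and drank water with folic acid at 20 μg/mL. No genetic change is labelled in any group, and the labels do not say whether a library holds DNA of 1 mouse or of several. With 1 library per diet there is no replicate check and no test, so each difference given here is one between single libraries.

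Developmental transcription factors switch on or off sets of genes that set a cell's identity, and most of them are silent in any one adult tissue. Many of their start sites lie in CpG islands, stretches rich in the dinucleotide CG that are usually free of DNA methylation, where Polycomb group proteins rather than methylation keep the gene off. Some of these factors stay in use in fat, among them GATA factors of fat precursor cells and the T-box factor Tbx15. A peak marks DNA that was methylated in at least part of the cells, while the lack of a peak means that enrichment there stayed below the threshold of the peak caller. In bulk tissue a methylated share of cells and a methylation level per cell cannot be told apart.

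The RefSeq promoter table used here gives start sites and strand for 38 of the 53 genes. Promoters are shown for 6 of them because the results turn on these start sites: Nkx6-1 and Sox2 had no peak near the gene in any library, Foxc1 had peaks on both sides in every library, and Lhx2, Gata2 and Pax8 had a peak close to the start in some libraries. Each runs 5′ to 3′ from 250 bases before the start to 50 bases after it, from RefSeq on build GRCm38.p6, the assembly of mm10, with every CG in capitals.
Nkx6-1 (chr5:101664662-101664961, minus strand): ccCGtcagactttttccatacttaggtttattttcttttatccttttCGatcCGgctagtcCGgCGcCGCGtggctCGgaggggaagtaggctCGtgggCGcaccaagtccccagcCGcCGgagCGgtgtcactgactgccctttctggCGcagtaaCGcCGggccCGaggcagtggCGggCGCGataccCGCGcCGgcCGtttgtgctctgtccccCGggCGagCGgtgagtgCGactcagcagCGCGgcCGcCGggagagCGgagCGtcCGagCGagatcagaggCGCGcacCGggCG
Sox2 (chr3:34649745-34650044, plus strand): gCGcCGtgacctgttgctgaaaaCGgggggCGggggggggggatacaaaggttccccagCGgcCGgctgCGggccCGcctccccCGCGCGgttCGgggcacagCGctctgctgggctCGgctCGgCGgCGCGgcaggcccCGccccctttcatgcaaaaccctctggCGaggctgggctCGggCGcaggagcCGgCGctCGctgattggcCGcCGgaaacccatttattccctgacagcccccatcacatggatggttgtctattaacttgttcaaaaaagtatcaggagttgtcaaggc
Foxc1 (chr13:31806396-31806695, plus strand): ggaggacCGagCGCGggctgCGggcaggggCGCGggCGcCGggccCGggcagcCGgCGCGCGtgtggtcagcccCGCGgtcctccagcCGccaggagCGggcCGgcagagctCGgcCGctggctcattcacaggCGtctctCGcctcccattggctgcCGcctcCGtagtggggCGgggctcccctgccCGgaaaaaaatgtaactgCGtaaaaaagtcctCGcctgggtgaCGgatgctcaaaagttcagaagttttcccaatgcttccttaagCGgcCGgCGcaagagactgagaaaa
Lhx2 (chr2:38339031-38339330, plus strand): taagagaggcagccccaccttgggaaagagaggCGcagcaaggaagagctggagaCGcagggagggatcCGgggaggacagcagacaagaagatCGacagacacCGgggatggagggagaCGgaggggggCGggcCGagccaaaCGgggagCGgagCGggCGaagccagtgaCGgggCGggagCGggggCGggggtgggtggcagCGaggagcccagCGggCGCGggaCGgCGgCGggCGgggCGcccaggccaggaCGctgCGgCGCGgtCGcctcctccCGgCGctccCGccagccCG
Gata2 (chr6:88193641-88193940, plus strand): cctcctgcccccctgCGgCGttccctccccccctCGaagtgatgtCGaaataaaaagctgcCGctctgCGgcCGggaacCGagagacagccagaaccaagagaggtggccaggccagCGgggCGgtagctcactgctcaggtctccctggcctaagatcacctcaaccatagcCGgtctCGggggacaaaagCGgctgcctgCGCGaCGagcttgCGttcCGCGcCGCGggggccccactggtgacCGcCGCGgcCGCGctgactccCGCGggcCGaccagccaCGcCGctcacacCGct
Pax8 (chr2:24475550-24475849, minus strand): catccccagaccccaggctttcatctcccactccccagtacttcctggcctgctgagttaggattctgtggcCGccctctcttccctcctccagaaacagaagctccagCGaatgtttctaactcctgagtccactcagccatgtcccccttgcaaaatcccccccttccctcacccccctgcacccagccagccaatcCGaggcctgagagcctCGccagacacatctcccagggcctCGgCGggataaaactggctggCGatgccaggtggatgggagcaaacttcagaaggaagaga
The motif counted was CG, which reads the same on both strands and cannot overlap itself. These promoters hold 40 CG in Nkx6-1, 27 in Sox2, 32 in Foxc1, 34 in Lhx2, 32 in Gata2 and 7 in Pax8. Over the 38 genes, counting the outermost listed promoter, the median was 19 CG, from 4 in Lhx8 to 40 in Nkx6-1. Over 17492 protein-coding genes with a listed promoter the median was 13, and 94.8% of them hold at least 1 CG. Taking as CpG-rich a GC content of at least 50% and an observed over expected CG ratio of at least 0.6, 25 of the 38 promoters (65.8%) were CpG-rich, against 45.8% of all listed ones.

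No listed promoter of these genes carried a peak. Of 49 promoters of the 38 genes, 8 of which have more than 1, none was overlapped by a peak in any library. The background is low as well, since 2.54% of all genes with a listed promoter had a peak over it in ND, 3.35% in HFD and 2.12% in FAD, so the 0 is near the background. In the wider surroundings the shares lay below the background. Distances here and below were measured from the outermost listed start of each gene. At some genes, such as Gata3, Irx2 and Tbx4, that start lies inside the record. A peak lay within 5000 bp of the start site in 8 of 38 genes in ND (21.1%), in 12 in HFD (31.6%) and in 7 in FAD (18.4%), against 36.3%, 46.4% and 33.1% of all genes with a listed start. Genes with a CpG-rich promoter gave 37.1%, 48.8% and 33.4%. The median distance from start site to nearest peak was 18362 bp in ND, 11289.5 bp in HFD and 16570.5 bp in FAD, compared with 7834, 5604 and 8606 bp over all genes.

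**Figure D1:**
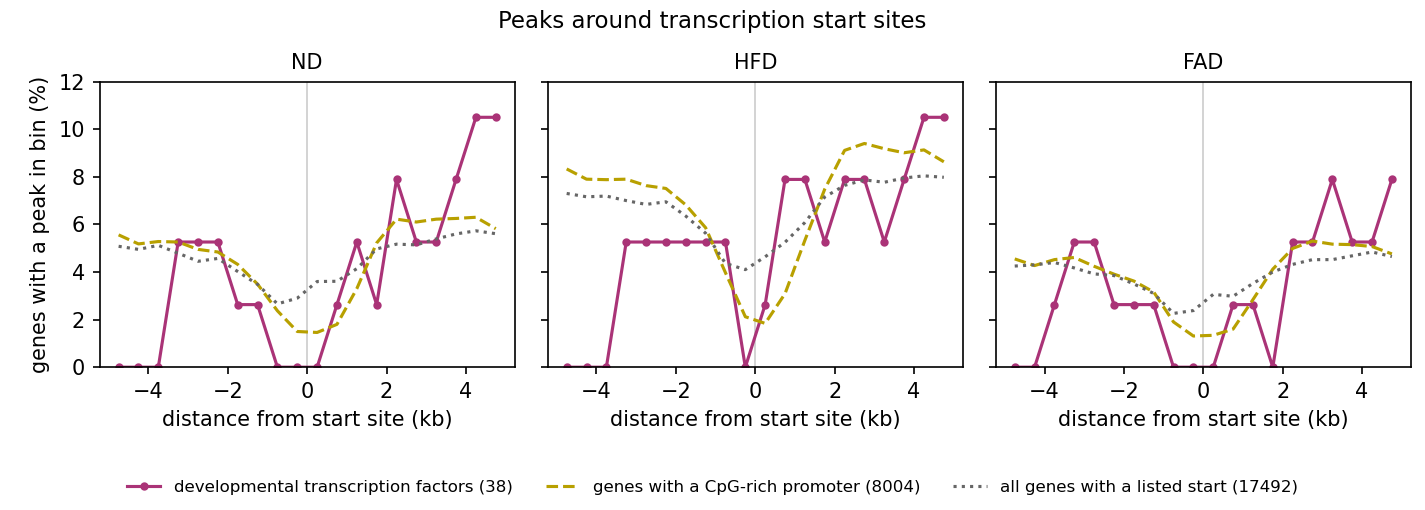
Share of genes with a peak in each 500 bp bin (percent) by distance from the start site (kb, negative upstream) in the 3 libraries, for 38 developmental transcription factors (solid), 8004 genes with a CpG-rich promoter (dashed) and 17492 genes with a listed start (dotted). Both larger sets dip near the start site, and in a set of 38 genes 1 gene is 2.63%. The 38 genes have no peak in any library from -5000 to -4000 bp, so their curve shows no dip particular to the start.

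A peak lay within 1000 bp of a start site at 1 of 38 genes in ND (2.63%; 7.43% of all genes), at 5 in HFD (13.2%; 10.4%) and at 1 in FAD (2.63%; 6.44%). Pax8, a factor of thyroid and kidney development, had an HFD peak with a score of 56.0 that began 171 bp inside the gene, while the nearest ND peak lay 13388 bp and the nearest FAD peak 14579 bp from the start. Gata2, a factor of blood cells and of fat precursors, had a peak 537 bp inside the gene in ND and 516 bp inside in HFD, each with a score of 57.7. In FAD the nearest peak to its start was 2594 bp upstream. Gata5, a factor of heart and gut lining, had an HFD peak 837 bp inside (59.3), with the nearest ND and FAD peaks at 13370 and 9277 bp. Lhx2, a LIM homeobox factor of forebrain, eye and hair follicle, had an HFD peak ending 875 bp upstream (98.3), with the nearest ND peak at 23633 bp and the nearest FAD peak at 109694 bp. Foxc1, a forkhead factor of eye and skull development, had a peak ending 1009 bp upstream in ND, 941 bp in HFD and 1056 bp in FAD. The gene in FAD was Nkx2-2, a factor of pancreatic beta cells and ventral neural tube. Its nearest peak lay 3243 bp inside the start in ND, 1020 bp in HFD and 983 bp in FAD. Several peaks near a start also lie in the record of another gene. This holds for the Lhx2 HFD peak (Gm46736), the Gata5 HFD peak (Gata5os) and the Gata2 peaks of each library (Gm38708). It also holds for the HFD and FAD peaks of Nkx2-2 (Nkx2-2os).

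Over the whole window of record plus flanks, fewer of these genes held a peak than genes at large. In ND 26 of 53 had one (49.1%), against 71.7% of all protein-coding genes. In HFD it was 30 (56.6%) against 77.9%, and in FAD 23 (43.4%) against 69.1%. Genes with a CpG-rich promoter gave 82.6%, 88.8% and 79.6% in ND, HFD and FAD, and genes between the length quartiles of the 53 gave 72.0%, 80.5% and 68.4%. The sets were nested, in that every gene with a FAD peak had an ND peak and every gene with an ND peak had an HFD peak. A peak in every library was found at 23 genes (43.4%; 64.3% of all genes), and 23 others had none in any (43.4%; 19.0% of all genes). The remaining 7 genes, Lhx2, Lhx8, Irx1, Irx2, Irx4, Gata5 and Tbx4, had one in some libraries only.

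**Figure D2:**
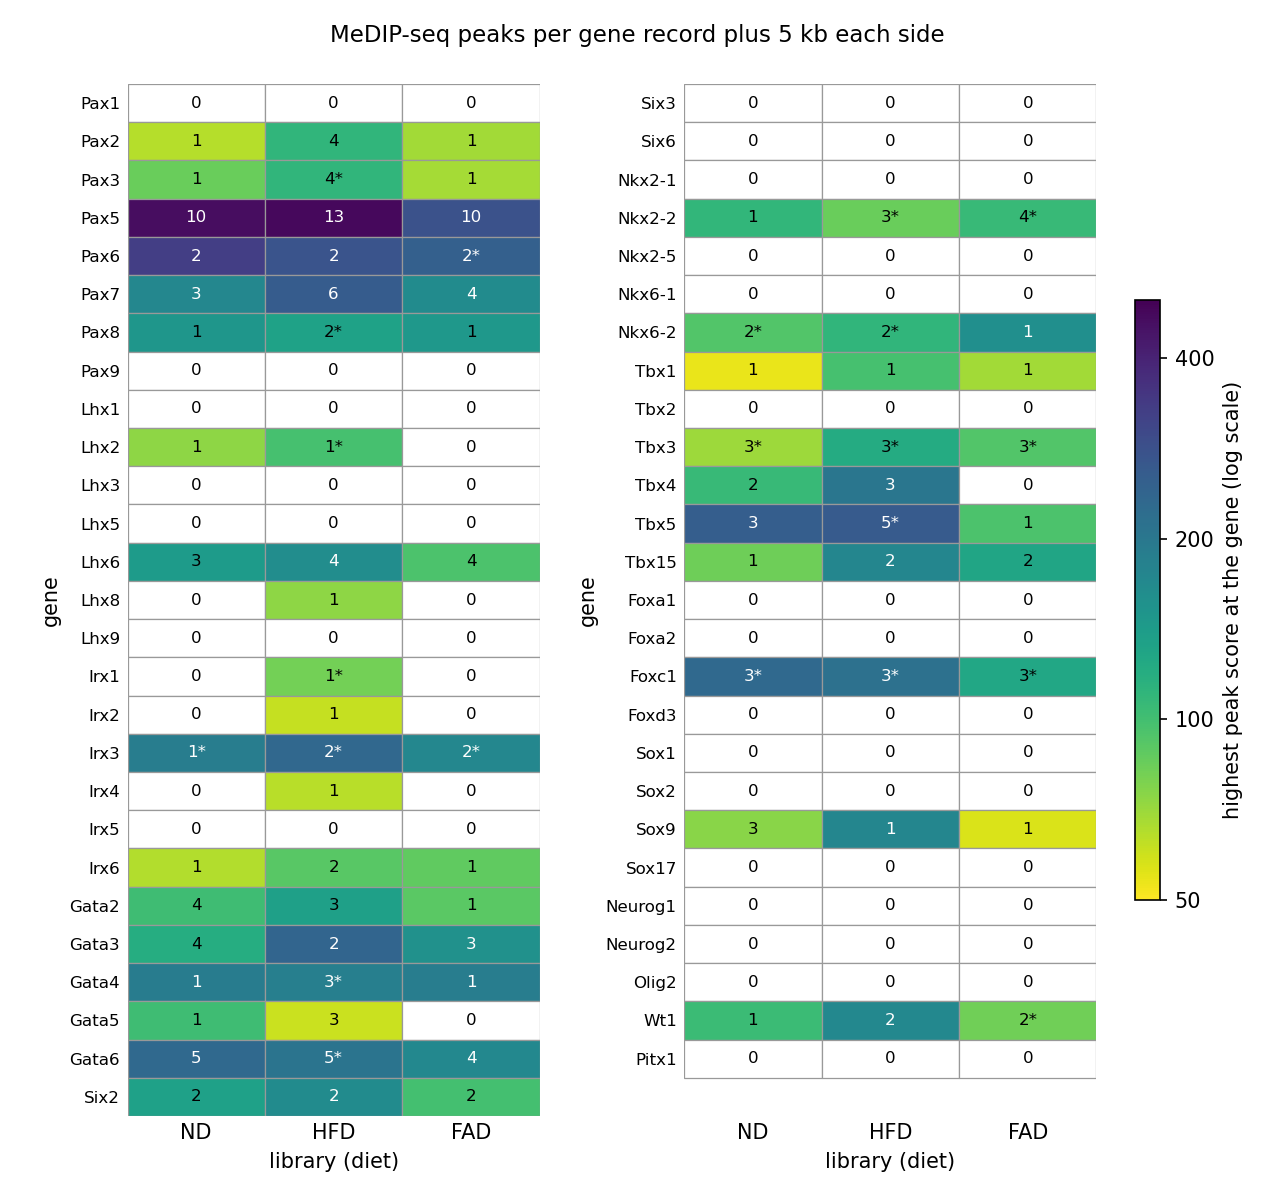
Number of peaks in the window of each of the 53 genes in the ND, HFD and FAD libraries, coloured by the highest peak score at the gene on a log scale (white, no peak; star, at least 1 peak at a gene end). The 23 white rows have no peak in any library, and Pax5 holds the most peaks with 10, 13 and 10.

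By family, the peak-free share ran from all of the bHLH genes to none of the GATA genes, against 19.0% of all protein-coding genes. The bHLH records are 1703 to 3128 bp long and the GATA records 10416 to 72799 bp. The part of record length in this order was not tested. All 3 bHLH genes, Neurog1, Neurog2 and Olig2, which set neuronal and oligodendrocyte fate, had no peak in any library. So had 3 of 4 SOX genes (Sox1, Sox2 and Sox17) and 3 of 4 FOX genes (Foxa1, Foxa2 and Foxd3), factors of neural and endodermal progenitors. Six3 and Six6, factors of eye and forebrain, were peak-free and Six2, a factor of kidney progenitors, was not. Among NKX genes, Nkx2-1, Nkx2-5 and Nkx6-1, factors of lung and thyroid, heart, and pancreas, were peak-free. LIM homeobox genes were peak-free at Lhx1, Lhx3, Lhx5 and Lhx9, 4 of 7. In the larger families the peak-free genes were Pax1 and Pax9 of 8 PAX genes, both factors of the vertebral column, Irx5 of 6 IRX genes, and Tbx2 of 6 TBX genes. Pitx1, a hindlimb factor, completed the 23, and all 5 GATA genes had peaks in at least ND and HFD.

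Short genes offer less room for a peak, and many of these are short. The median record length was 10034 bp, against 17169 bp over all protein-coding genes. The 23 peak-free genes had a median of 6325 bp (1703 to 23654 bp) and the 30 others 24896 bp (3144 to 185947 bp). Within bins of record length, 9 of 12 genes of up to 5000 bp were peak-free, where 47.3% of all genes of that length were. From there to 10000 bp it was 9 of 14 against 23.0%, to 20000 bp 3 of 8 against 14.1%, and to 50000 bp 2 of 11 against 9.09%. Of the 8 longer genes none was peak-free, against 2.10%. Shares of peak-free genes with a CpG-rich promoter were lower still in each bin, from 29.5% to 1.57%. In all, 11 of 25 of the genes with a CpG-rich promoter (44.0%) were peak-free, against 9.06% of 8004 such genes, and among genes of any promoter between the length quartiles 16.1% were.

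**Figure D3:**
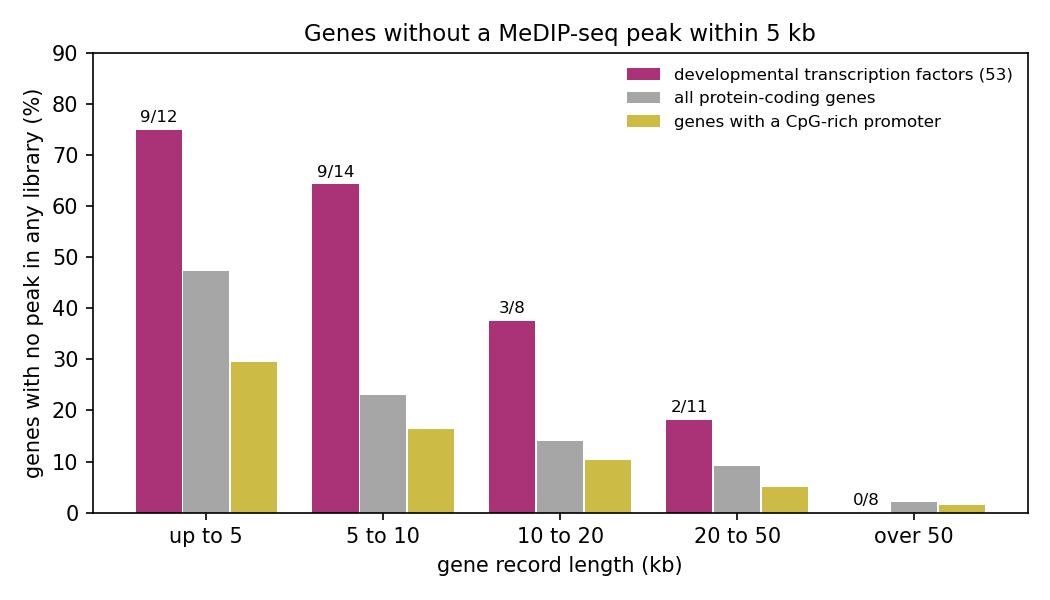
Percent of genes with no peak within 5 kb in any library, by gene record length (kb), for the 53 developmental transcription factors (peak-free and total genes above each bar), all protein-coding genes and genes with a CpG-rich promoter. In the 4 bins up to 50 kb the bar of the developmental factors is the tallest.

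The peak-free stretch around each of the 23 genes, measured between the nearest peaks of any library on either side, had a median of 46880 bp. It ran from 21349 bp at Irx5, a partner of Irx3, to 147281 bp at Pax9. The 4050 protein-coding genes without a peak for which such a stretch could be measured gave a median of 53206 bp, with a median record of 3774 bp, so stretches of this size are usual around peak-free genes. Foxa2, a factor of liver and endoderm that also acts in mouse fat precursors, stood in a stretch of 247006 bp in ND, 141170 bp in HFD and 141206 bp in FAD. Its nearest peak was 120612 bp away in ND, 14936 bp in HFD and 14956 bp in FAD. Sox17, an endoderm and endothelial factor, had the longest stretch in FAD, 239506 bp, where ND gave 82670 bp and HFD 106032 bp. Sox2, a factor of pluripotent and neural stem cells whose promoter is shown above, had its nearest peak at 30606 bp in ND, 15096 bp in HFD and 15117 bp in FAD. For Nkx6-1, also shown, the distances were 14165, 12313 and 28271 bp.

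**Figure D4:**
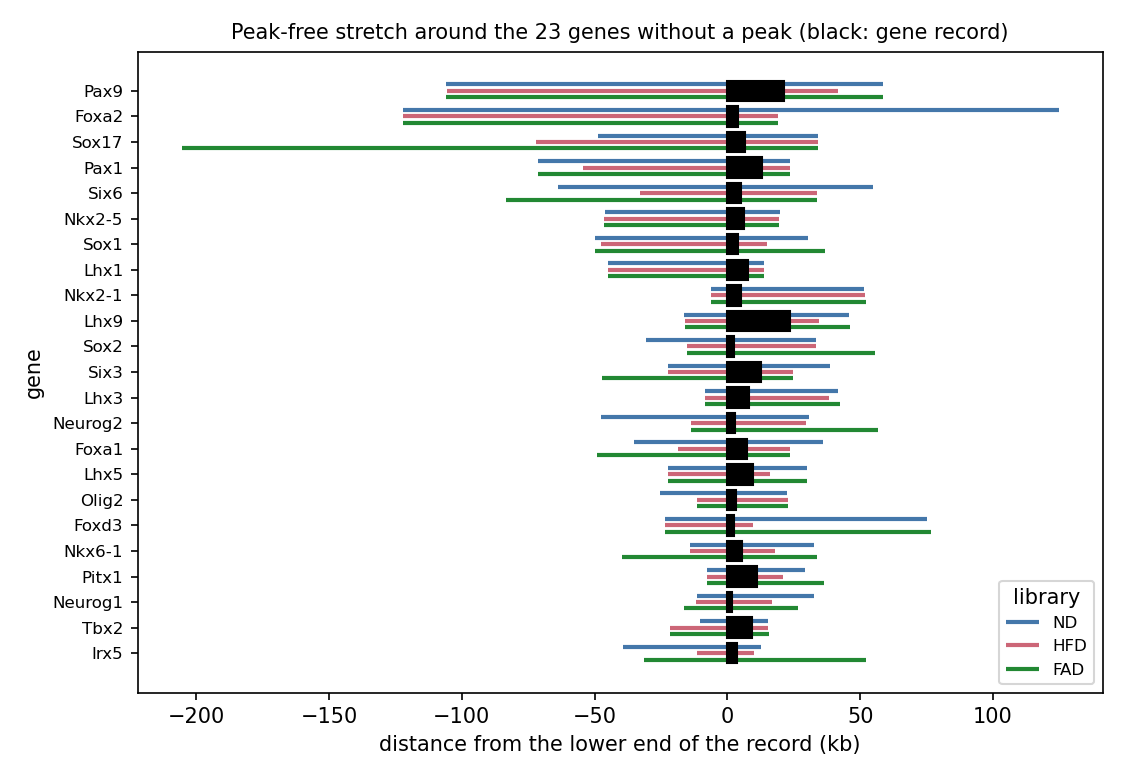
Peak-free stretch (coloured line, kb from the lower-coordinate end of the record) in each library around each of the 23 genes without a peak, with the gene record in black. Foxa2 has its longest stretch in ND and Sox17 in FAD.

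The 30 other genes held 61 peaks in ND, 87 in HFD and 55 in FAD. Over all 53 windows that is 0.322, 0.459 and 0.290 peaks per 10 kb, where all protein-coding windows held 0.457, 0.626 and 0.419. The order of the libraries was thus that of the whole lists, which hold 101532 peaks in ND, 135124 in HFD and 95501 in FAD, with median widths of 507, 587 and 447 bp. Each peak carries a score from the authors, at least 50 in every list and of unstated scale, so scores rank peaks within a library. The median score was 87.2 in ND, 95 in HFD and 82.0 in FAD at these genes, against 96.3, 99.4 and 94.1 at all protein-coding genes. Peaks with a score of 200 or more numbered 6 of 61 in ND, 11 of 87 in HFD and 2 of 55 in FAD. At all protein-coding genes they were 8136 of 52355, 12866 of 71962 and 6370 of 48208 peaks.

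Most of these peaks lay inside the record, 47 of 61 in ND (77.0%), 62 of 87 in HFD (71.3%) and 38 of 55 in FAD (69.1%). Peaks at all protein-coding genes gave 79.3%, 79.5% and 79.8%, so this does not set these genes apart. A gene end was taken as the stretch from 2000 bp outside to 500 bp inside either end of the record. It held 8.20% of the ND peaks, 16.1% of those in HFD and 16.4% of those in FAD, while peaks at all genes gave 9.66%, 9.88% and 9.19%. The shares at these genes rest on 5, 14 and 9 peaks. A gene end has the same length in every gene, so it takes a larger part of the window at a shorter gene. The median record was 10034 bp here and 17169 bp over all protein-coding genes. The part of record length in the difference was not tested. A peak that also lies in the record of another gene cannot be given to either gene, which concerned 12 peaks in ND, 13 in HFD and 10 in FAD.

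A gene-end peak was found at 4 genes in ND (7.55%; 22.5% of all protein-coding genes), at 12 in HFD (22.6%; 30.4%) and at 6 in FAD (11.3%; 19.9%). Tbx3, Irx3 and Foxc1 had one in every library (5.66%; 15.1% of all genes), and 39 genes had none in any (73.6%; 65.5%). Foxc1 was flanked by the same 3 peaks in each library. The far upstream peak scored 87.2 in ND, 118 in HFD and 127 in FAD, the near upstream peak 99.5, 99.3 and 67.8, and the peak beyond the 3′ end 229, 213 and 105. The near upstream peak lay at chr13:31804662-31805637 in ND, in front of the start at chr13:31806646, and no peak of any library fell inside the record.

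Irx3, an Iroquois factor studied in mouse fat and hypothalamus because the obesity-linked stretch of the human FTO gene contacts it, had all its peaks at the 3′ end. One peak beyond that end scored 189.9 in ND, 231 in HFD and 172 in FAD, and lies inside the predicted gene Gm39222 as well. A second one over the last part of the gene, at chr8:91798542-91799613 in HFD, scored 120.1 in HFD and 121 in FAD and had no ND counterpart. At Tbx3, a T-box factor of limb and mammary gland, 3 peaks recurred in the 3 libraries. The one at the lower-coordinate end, which also lies in the antisense gene Tbx3os1, scored 68.7 in ND, 122 in HFD and 66.2 in FAD.

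HFD had gene-end peaks that ND lacked at 8 genes (15.1%), Pax3, Pax8, Lhx2, Nkx2-2, Tbx5, Irx1, Gata4 and Gata6, while 10.6% of all genes showed this. The opposite, a gene-end peak in ND and none in HFD, was found at 0 genes, against 2.64% of all. HFD had gene-end peaks that FAD lacked at 8 genes (15.1%; 12.6% of all), with Nkx6-2 in place of Nkx2-2. FAD had them without HFD at 2, Wt1 and Pax6 (3.77%; 1.99%), and without ND at 3, these and Nkx2-2 (5.66%; 4.22%). ND had one without FAD at Nkx6-2 alone (1.89%; 6.85%). Each of these shares was near that of all genes and does not set these genes apart. When each list was shortened to its 95501 highest-scoring peaks, HFD without ND fell to 3 genes, Lhx2, Tbx5 and Irx1, and HFD without FAD to 4.

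At Tbx5 and Gata6 an ND peak lay at or next to the HFD gene-end peak that ND was counted as lacking. At Tbx5, a factor of heart and forelimb, the libraries differed in the width of 1 peak. The HFD peak at chr5:119882858-119884917 was 2060 bp wide with a score of 261, and it overlapped an ND peak of 1263 bp with a score of 253 and a FAD peak of 633 bp with a score of 96.2. Only the HFD peak reached the gene-end window. At Gata6, a factor of heart and gut endoderm, the HFD peak (60.2) had an ND peak (78.1) 540 bp away.

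At 5 genes the HFD peak stood alone, with no ND or FAD peak within 5000 bp of either gene-end window. Lhx2 had the highest score of these, 98.3, followed by Irx1 with 81.6, Gata4 with 66.2, Pax3 with 59.9 and Pax8 with 56.0. The Lhx2 peak also lies in the record of Gm46736. All 5 scores lie below the HFD median of 100.4 over the whole list. For Irx1 the HFD peak lay across the lower-coordinate end, at chr13:71957604-71958441, with the nearest ND peak 47948 bp and the nearest FAD peak 44344 bp away.

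At the other genes FAD differed from HFD or both high-fat libraries from ND. Nkx2-2 had a peak beyond its 3′ end in HFD (69.8) and FAD (56.8) and none in ND, and a further FAD peak at the upper end of its record (68.1), which lies 9395 bp upstream of the one listed start and within the antisense gene Nkx2-2os. Nkx6-2, a factor of ventral spinal cord and oligodendrocytes, had a 3′ peak in ND (93.1) and HFD (104) and none in FAD. A flank peak 505 bp beyond the window in FAD recurred in all libraries, with scores of 74.9 in ND, 111 in HFD and 159.6 in FAD. All its peaks lie within the neighbouring gene Inpp5a. Pax6, the eye and pancreas factor, had a FAD peak at its 3′ end (55.8) with an HFD peak 2675 bp and an ND peak 2748 bp away. Beyond it a peak inside the neighbour Elp4 scored 328 in ND, 275 in HFD and 249 in FAD.

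**Figure D5:**
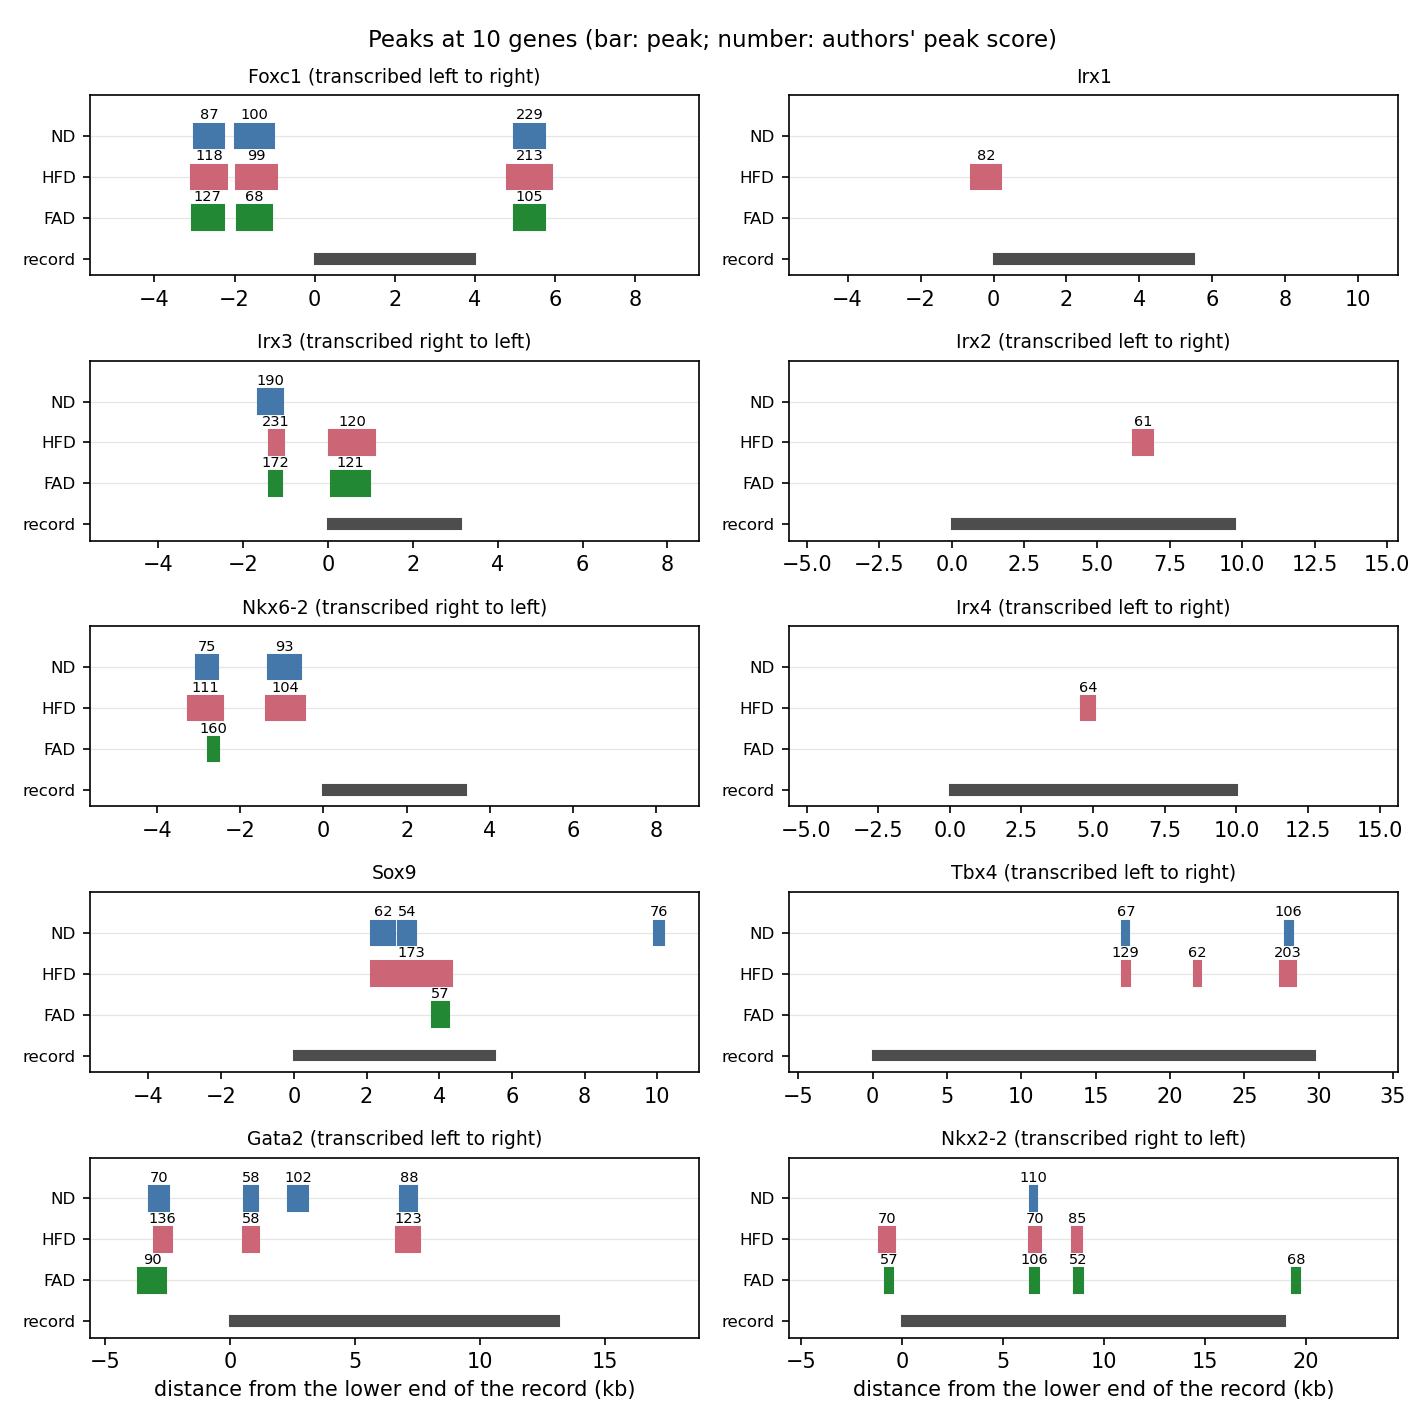
Peaks (bars, with the authors' score) in the ND, HFD and FAD libraries at 10 genes, by distance from the lower-coordinate end of the gene record (kb; grey bar, record). Foxc1 keeps 3 peaks in each library, Irx1, Irx2 and Irx4 have 1 peak in HFD only, and Sox9 has a single HFD peak where ND has 2 narrower ones.

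Over the whole window, HFD had a peak where ND had none at Lhx8, Irx1, Irx2 and Irx4 (7.55%; 8.23% of all genes), and where FAD had none at these and Lhx2, Gata5 and Tbx4 (13.2%; 10.5%). ND had a peak and FAD none at the last 3 (5.66%; 6.76%). The other directions gave 0 genes, against 1.97% for ND without HFD, 1.64% for FAD without HFD and 4.16% for FAD without ND. These shares too were near the background.

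Irx1, Irx2 and Irx4, which pattern heart, limb and nervous system, form a cluster on chromosome 13 and each had 1 HFD peak and no peak in ND or FAD. The HFD scores were 81.6 at Irx1, 61.2 at Irx2 and 64.0 at Irx4. The last 2 lie below 73.2, the lowest HFD score kept when the lists are cut to equal length, so there only the Irx1 peak is left. Around Irx2 the nearest other peaks were 21776 bp away in ND and 21778 bp in FAD, and around Irx4 53036 and 53050 bp. Between the genes the cluster was not peak-free. From 5000 bp before Irx1 to 5000 bp after Irx4, 1.32 Mb, there were 35 peaks in ND, 56 in HFD and 30 in FAD, and in the second cluster of Irx3, Irx5 and Irx6 on chromosome 8, 0.892 Mb, 37, 62 and 33. HFD also had the most peaks over the whole lists, 1.33 times as many as ND and 1.41 times as many as FAD. These spans were chosen after their values were seen and no like spans elsewhere were counted, so the counts do not set the clusters apart. In the second cluster Irx6 had an interior peak in each library, with scores of 65.1, 90.8 and 87.7, and an HFD flank peak of 53.4.

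Lhx8, a factor of forebrain cholinergic neurons, had 1 HFD peak of 73.9 in its interior. Tbx4, a hindlimb factor related to Tbx5, had 2 interior peaks in ND, at 66.7 and 106, and 3 in HFD, at 129, 62.2 and 203. Both ND peaks overlapped HFD peaks, and FAD had no peak in the window. Close beyond the window lay a FAD peak, 6664 bp from the ND peak of 106 and 6468 bp from the HFD peak of 203. The HFD peak of 203 was 1077 bp wide, at chr11:85913746-85914822. Gata5 had a flank peak beyond its 3′ end in ND (102) and HFD (60.1) and none in FAD. The FAD peak nearest to these lay outside the window, 3710 bp from the ND peak and 3708 bp from the HFD peak. At Lhx2 an interior peak was found in ND alone (73.9), 24507 bp from the HFD peak.

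Of the 10 genes with a known part in fat, 8 had a peak in every library (80.0%; 64.3% of all protein-coding genes), and Irx5 and Foxa2 had none in any (20.0%; 19.0%). Gata2 and Gata3 hold mouse fat precursors back from becoming adipocytes. Gata2 had 4 peaks in ND, 3 in HFD and 1 in FAD. A peak upstream of the gene, also inside the record of Gm38708, scored 70.3 in ND, 136 in HFD and 90.3 in FAD. At 1087 bp the last of these was the widest FAD peak at any of the 53 genes. Interior peaks of 88.4 in ND and 123 in HFD had no FAD counterpart, nor did those near the start. ND alone had an interior peak of 102, its highest at this gene, 2319 bp inside the start. Gata3 had 2 peaks near the 3′ end in all libraries, with scores of 119.9, 141 and 122 and of 94.9, 238 and 157 in ND, HFD and FAD. Toward the start, HFD had no peak, while ND had 1 at 3524 bp (50) that overlapped a FAD peak (60.9), and ND alone had 1 at 1481 bp (68.3).

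Tbx15, which marks a subset of mouse adipocytes and acts in skeletal development, had an interior peak in all libraries, at 82.9 in ND, 173 in HFD and 129.7 in FAD. Elsewhere in the gene HFD and FAD each had a peak of their own, of 54.1 in HFD and of 66.5 in FAD, the latter 28269 bp from the nearest HFD peak. Wt1, a marker of the mesothelium and of visceral fat precursors, had an interior peak of 104 in ND, 170.2 in HFD and 82.0 in FAD. At its higher-coordinate end FAD alone had a peak, of 61.3, with an HFD peak of 60.9 some way beyond it, 3354 bp off. That HFD peak was overlapped by a further FAD peak, which lies outside the window and was not counted. Sox9, a cartilage factor also found in fat precursors, had 2 neighbouring interior peaks in ND, at 62.2 and 54.0, and in HFD a single one of 2232 bp with a score of 173. That peak, at chr11:112784337-112786568, was the widest at any of the 53 genes in HFD. It spans both interior ND peaks and the 1 FAD peak of 56.9. In the flank of Sox9 ND alone had a peak, of 75.5, its highest there, 1444 bp from the nearest HFD peak.

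Pax3, a factor of neural crest and muscle progenitors from which some fat cells of the mouse descend, had 1 peak in ND (84.7), 4 in HFD (59.9, 107, 111 and 102) and 1 in FAD (68.1). The ND peak and the FAD peak each overlapped an HFD peak but lay far apart from each other. Across the 10 genes, gene-end peaks were found at 2 in ND (Irx3 and Foxc1), at 3 in HFD (these and Pax3) and at 3 in FAD (Irx3, Foxc1 and Wt1). These are 20.0%, 30.0% and 30.0%, near the 22.5%, 30.4% and 19.9% of all genes.

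The highest score in each library was at Pax5. This gene of B-cell identity, with 185947 bp the longest record of the 53, held 10 peaks in ND, 13 in HFD and 10 in FAD, all in its interior. Its highest-scoring peak lay 94501 bp from the start in ND, at chr4:44615756-44616193, with a score of 463, and the overlapping peaks scored 475 in HFD and 281 in FAD. A second one near the 3′ end scored 223 in ND, 341 in HFD and 109.7 in FAD. Within the gene, the peak closest to the start of Pax5 was 30809 bp away in ND, 15998 bp in HFD and 70192 bp in FAD, while beyond the window a peak lay 9009, 9203 and 9201 bp from the start.

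Pax7, the factor of muscle stem cells, had 3 peaks in ND, 6 in HFD and 4 in FAD. Its 3 ND peaks recurred in both other libraries, with scores of 172, 259 and 166, of 168, 206 and 59.1, and of 87.1, 83.0 and 102 in ND, HFD and FAD. Pax8 had an interior peak of 149.6, 133 and 146, which lies within the predicted gene Gm13415 as well. Pax2, a kidney factor, had 1 ND peak of 64.4 with no overlapping peak elsewhere, 4 HFD peaks from 53.4 to 111, and 1 FAD peak of 68.8 that overlapped the highest HFD peak.

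The remaining genes kept their main peaks across the libraries. Gata4, a heart factor, had a peak of 191 in ND, 187 in HFD and 189.7 in FAD, and HFD added 1 of 108 besides the one at its end. Gata6 had 5 peaks in ND and HFD and 4 in FAD, among them an interior peak of 230.1 in ND, 183 in HFD and 171 in FAD. Its peak in the flank, inside the antisense gene Gata6os, scored 183, 207 and 170.5. Six2 had 2 peaks in each library, at 135, 166 and 99.6 and at 101, 64.4 and 94.9. Lhx6, a factor of cortical interneurons, had 3 peaks in ND and 4 in HFD and in FAD, the highest at 143, 163 and 95.8. Tbx1, a factor of the pharyngeal arches, had 1 peak in each library, at 54.2, 98.5 and 69.1. Nkx2-2 had an interior peak of 109.8 in ND, 69.9 in HFD and 106 in FAD.

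Peak by peak, most ND peaks at these genes recurred in HFD and about as often as elsewhere. Of 61 ND peaks, 82.0% overlapped an HFD peak (Wilson 95% interval 70.5 to 89.6%, counting error only), against 84.3% at all protein-coding genes. Of 87 HFD peaks, 55.2% overlapped an ND peak (44.7 to 65.2%) against 60.7%, and 49.4% a FAD peak (39.2 to 59.7%) against 56.6%. FAD peaks overlapped HFD in 76.4% (63.7 to 85.6%) against 85.8%, and ND in 65.5% (52.3 to 76.6%) against 73.8%. For FAD in HFD alone the share at all genes lies above the interval, and only just. Peaks cluster within genes, with 10 of the 55 FAD peaks at Pax5, and the interval does not cover this. No difference is therefore drawn from it. Peaks found in 1 library only numbered 8 in ND (13.1%), 30 in HFD (34.5%), over 18 genes, and 10 in FAD (18.2%), where peaks at all protein-coding genes gave 12.2%, 29.0% and 10.4%. The highest score among them was 102 in ND, 108 in HFD and 78.3 in FAD, while peaks shared by all 3 libraries reached 463, 475 and 281.

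Peak lists hold no expression, so the tissue could not be checked by marker transcripts, and markers of cell types that the depot may hold were read in the same way. Gene-end peaks were found at 1, 3 and 3 of 10 adipocyte markers in ND, HFD and FAD, at 2, 4 and 2 of 7 leukocyte markers, at 3, 3 and 2 of 5 mesothelium markers and at 0, 2 and 0 of 6 epididymis markers. All protein-coding genes gave 22.5%, 30.4% and 19.9%, with the highest share in HFD. Among the markers HFD alone was highest for leukocytes and epididymis. It tied with FAD for adipocytes and with ND for mesothelium. With 5 to 10 genes per list these counts do not set any cell type apart. The part of cell composition or depth in the differences was not tested.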

How the data were processed

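MeDIP-seq peaks of epididymal fat were analysed for 3 libraries, 1 per diet, grouped by their labels. The deposited files are peak lists that the authors called separately per library, on build mm10 per the submitters' processing notes. Each peak carries the authors' own score, of at least 50 and of unstated scale, and no counts. Read depth, any control and the settings of the caller, whose names carry a MACS prefix, were not given in the sources used here, so intervals cover counting error over peaks only.

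Gene records and promoters came from RefSeq tables of GRCm38.p6, and all 53 genes matched. A peak was given to a gene by an overlap of 1 bp with the record plus 5000 bp, and sorted into gene end (2000 bp outside to 500 bp inside either end), interior or flank. Counts were set beside all 21887 protein-coding genes, those with a CpG-rich promoter, and 8925 genes between the length quartiles of the 53 (5492 to 29515 bp). With 1 library per diet no test was run. The genes, the lists and the rule for named genes were chosen with earlier results of these data known. That rule named genes whose gene-end peaks differed, the 3 highest scores, the most peaks and the widest peak in each library, genes without a peak and genes with a known part in fat, and for the list of other factors the 2 highest-scoring differences per direction.

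The overlap code was tested on simulated data and gave the same call as bedtools for 65661 gene and library pairs. Alternatives were equal-length lists, a score of at least 100, peak midpoints, narrower flanks and windows, start-site ends, a reciprocal overlap of 50%, joining within 500 bp, and absence within 5000 bp. Python 3.11.15, pandas 2.3.3, numpy 2.4.6, matplotlib 3.10.9 and bedtools 2.31.1 were used.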

Additional observations from a re-analysis of the deposited data

How the results depend on the processing

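Under the alternative settings 53 values for these genes stayed within 1.5 times the count, or within the Wilson interval of the share, and 31 did not. With equal-length lists of 95501 peaks, gene-end peaks in HFD fell from 12 to 7 genes, HFD without ND from 8 to 3 and HFD without FAD from 8 to 4. There 67.2% of HFD peaks overlapped ND, 69.0% of ND peaks HFD and 61.8% of FAD peaks HFD. The lowest HFD score kept in these lists was 73.2, against 54.8 in ND. With scores of 100 or more, genes with a peak within 5000 bp fell from 26 to 17 in ND, from 30 to 21 in HFD and from 23 to 12 in FAD, and gene-end peaks to 2 genes in ND, 5 in HFD and 2 in FAD. HFD without ND and HFD without FAD then gave the same 3 genes, Tbx3, Tbx5 and Nkx6-2. FAD without HFD, FAD without ND and ND without FAD gave 0. For HFD without ND only Tbx5 was among the 8 genes of the uncut lists. Tbx3 and Nkx6-2 entered because their ND gene-end peaks, of 68.7 and 93.1, fell below the cut. Tbx3 entered HFD without FAD in the same way, with a FAD peak of 66.2. Counting the start-site end alone, which leaves the 38 genes with a listed start, gave gene-end peaks at 1 gene in ND, 3 in HFD and 1 in FAD, HFD without ND and HFD without FAD at 2 each, and FAD without HFD, FAD without ND and ND without FAD at 0. Windows of 1000 bp on each side gave 1 gene in FAD without HFD and 2 in ND without FAD. Requiring absence within 5000 bp of the windows gave 5 genes in HFD without FAD, 0 in FAD without HFD and 0 in ND without FAD. With a reciprocal overlap of 50%, 36.8% of HFD peaks overlapped FAD and 56.4% of FAD peaks HFD. No paired analysis was possible because each diet has 1 library.

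The number of peak-free genes and the nesting of the libraries depend on each caller's threshold and on depth, which these lists do not give. Differences between diets rest on single libraries. For 15 genes no strand or start site was used, so their ends are named by coordinate, and the CpG-rich comparison was chosen after seeing the data.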

Other observations

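A second list of 95 developmental transcription factors was read in the same way. A peak within 5000 bp was found at 36 genes in ND (37.9%), at 45 in HFD (47.4%) and at 37 in FAD (38.9%), against 71.7%, 77.9% and 69.1% of all protein-coding genes. None in any library was found at 45 (47.4%; 19.0% of all). Gene-end peaks were found at 10 genes in ND (10.5%), 14 in HFD (14.7%) and 5 in FAD (5.26%), against 22.5%, 30.4% and 19.9% of all. HFD had one without ND at 6 (6.32%; 10.6% of all), led by Gsx2, a forebrain factor (92.3), and Isl2, a motor neuron factor (78.3). ND had one without HFD at 2 (2.11%; 2.64%), Tbx18, a factor of heart and ureter (68.1), and Gli3, an effector of hedgehog signalling (52.7). HFD had one without FAD at 9 (9.47%; 12.6%), led by Sall4, a stem cell factor (112), and Gsx2, and FAD without HFD at 0 (1.99% of all). The Sall4 peak had a FAD peak 1535 bp away. Isl2 and Gsx2 had no other peak within 5000 bp of their gene-end windows.

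Genes of the Polycomb group, whose proteins bind many promoters of such factors, were read as well. Of 26, 21 had one in ND (80.8%), 24 in HFD (92.3%) and 19 in FAD (73.1%), while all protein-coding genes gave 71.7%, 77.9% and 69.1%. Suz12, a core subunit of Polycomb repressive complex 2, was the 1 gene without a peak in any library. Gene-end peaks were found at 4 in ND (15.4%), 8 in HFD (30.8%) and 4 in FAD (15.4%), against 22.5%, 30.4% and 19.9%.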
